A study of Mus musculus with 24 samples.

Results

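Polycomb repressive complex 1 (PRC1) was examined through 9 autosomal genes of its subunits, taken by name from 21887 protein-coding mouse genes. They were the chromodomain genes Cbx2, Cbx8, Cbx6 and Cbx7, the PCGF genes Bmi1, Pcgf2 and Pcgf1, and the RING-finger ligase genes Ring1 and Rnf2. All 9 were found in the gene table, and no filter on low values was applied. The measure was the length of each gene window, the gene body with 10 kb added on each side, that lay under peaks of chromatin immunoprecipitation with sequencing (ChIP-seq). The mutant lines, 236L and 236R, were grown from tumours that carried a guide RNA against Kdm6a, and the control lines, 159-1 and 1014, from tumours with a control guide RNA. All 4 are untreated, low-passage mouse small cell lung cancer lines of the RPP model, so mutant and control lines share its engineered loss of Rb1, Trp53 and Rbl2, and cells were harvested 24 h after plating. H3K4me1, H3K4me2 and H3K27me3 were profiled in every line, which gave 4 peak lists a mark. KDM6A was mapped in 159-1 and 1014 alone, after added crosslinking with 2 mM disuccinimidyl glutarate, so the loss of the protein in 236L and 236R was not checked here. A group is 2 lines, and the labels do not say whether 236L and 236R came from separate animals. The spread between them may therefore be technical.

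PRC1 is an E3 ligase that attaches a single ubiquitin to histone H2A, and RNF2 or RING1 is its catalytic subunit. A PCGF protein partners the RING subunit and sets the kind of complex. BMI1 and PCGF2 define canonical PRC1, in which a CBX protein binds H3K27me3 placed by PRC2, while PCGF1 defines a variant complex that KDM2B brings to unmethylated CpG islands. H3K4me1 marks enhancers, H3K4me2 marks enhancers and promoters, and KDM6A both removes methyl groups from H3K27 and belongs to complexes that methylate H3K4. BMI1 is known as an oncoprotein that represses Cdkn2a.

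Library facts that touch the values are these. The lists held 71675 and 72199 H3K4me1 peaks in 236L and 236R, against 82915 and 88582 in 159-1 and 1014, and 47141 and 45544 H3K4me2 peaks in 236L and 236R, against 58368 and 56481 in 159-1 and 1014. H3K27me3 lists were more unequal, covering 13.8 and 30.5 Mb in 236L and 236R, against 45.4 and 110.3 Mb in 159-1 and 1014. Line 236L stood apart on cell type markers. Over 10 macrophage genes its summed H3K4me1 was 157.7 kb, against 20.6 kb in 236R and 24.2 and 23.3 kb in 159-1 and 1014. H3K27me3 was at 0 in all 10 of them in 236L, whose H3K27me3 list was the shortest. It was also at 0 in 6 of them in 236R, and in 6 and 3 in 159-1 and 1014. Over 10 neuroendocrine genes summed H3K4me2 was 38.9 kb in 236L and 71.6 kb in 236R, against 76.2 and 85.4 kb in 159-1 and 1014. Some H3K4me2 was listed at each of the 10 in every line. H3K4me1 at Scg2 was 0 in 236L, 236R and 159-1 and 0.678 kb in 1014, so it did not set 236L apart. Fibroblast and endothelial genes, also 10, summed to 55.0 and 57.5 kb of H3K4me1 in 236L and 236R, against 45.4 and 44.3 kb in 159-1 and 1014. The part of these differences in the results below was not tested, and results that rest on 236L are given also without it. In bulk libraries, fewer cells with a mark and less of the mark per cell cannot be told apart. The 2 deposited H3K4me2 lists of the control lines are named for each other's line, and values here follow the labels. Exchanging them leaves the group values of H3K4me2 cover as they are. Values that set H3K4me2 against another list of the same line can change. Those for KDM6A are given below both ways in sum, and those for H3K27me3 were not recomputed.

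All 9 genes carried H3K4me2 at their start in every line and KDM6A at their start in both control lines. The start region was 2.5 kb on each side of the listed transcription start, or of both gene ends for Cbx2 and Pcgf1. Of all genes, 64.8% had some H3K4me2 there in all 4 lines and 50.2% had some KDM6A in both control lines. H3K4me2 covered at least 50% of the start region in all 4 lines at 7 of 9 genes, against 23.5% of all genes. The exceptions were Cbx2 and Pcgf1, whose regions span both ends, so that their shares are taken over a longer region. H3K4me1 touched the start in all 4 lines at 8 of 9 genes, all but Rnf2, against 42.8% of all genes, and covered at least 50% of it in all 4 lines at Cbx8 alone (1 of 9, against 2.44%). Over these regions KDM6A reached 50% in both control lines at Cbx8 (1 of 9, against 1.67% of all genes), with 58.0% in 159-1 and 51.1% in 1014. At Cbx2 the region takes in both ends, and over the 5 kb around the low-coordinate end alone KDM6A covered 54.0% in 159-1 and 52.7% in 1014. Bmi1 came next with 47.8% in 159-1 and 40.5% in 1014, and Pcgf2 had 30% and 43.3%. These 3 genes were followed by Cbx6 (37.5% and 25.1%), Ring1 (18.6% and 39.8%), Cbx2 (27% and 26.3%), Rnf2 (23.8% and 24.1%), Cbx7 (14.7% and 13.6%) and Pcgf1 (20.6% and 7.03%), each in 159-1 and then 1014. With only the stronger peaks (a −log10 q of at least 3) no gene reached 50% of its region in both lines, but the KDM6A peak at the low-coordinate end of Cbx2, with a −log10 q of 7.63 in 159-1 and 6.40 in 1014, passes that threshold.

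The rank of a peak gave another order of the genes for KDM6A than cover did. The best peak at each start was ranked by the authors' −log10 q within its own list, as the percentage of peaks that lie lower. KDM6A at Cbx2 ranked above 93.0% of the 159-1 list and 86.3% of the 1014 list, and at Rnf2 above 82.6% in 159-1 and 89.2% in 1014. Bmi1 ranked above 89.2% in 159-1 and 69.7% in 1014, and Pcgf2 above 79.1% in 159-1 and 80.7% in 1014. Cbx8, with the largest share of its start region under KDM6A, ranked above 65.0% in 159-1 and 36.4% in 1014. Pcgf1, whose mean share was the smallest when taken over both gene ends, ranked above 60.9% in 159-1 and 18.3% in 1014. Over the 5 kb around its low-coordinate end alone, KDM6A covered 34.3% in 159-1 and 11.7% in 1014. For H3K4me2 the best peak at Ring1 ranked above 99.3% and 96.0% of the lists in 236L and 236R, against 96.2% and 96.5% in 159-1 and 1014. At Bmi1 it ranked above 79.1% and 65.5% in 236L and 236R, against 78.6% and 74.5% in 159-1 and 1014. Bmi1 thus combined long H3K4me2 cover with peaks of lower rank than those of Ring1.

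**Figure D1:**
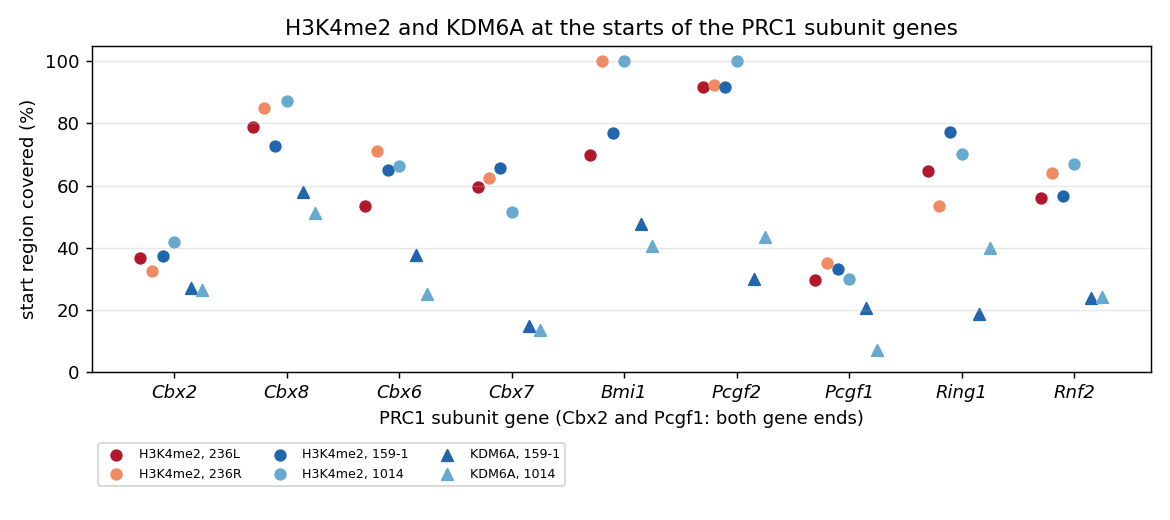
Share of the start region covered by H3K4me2 (circles, 4 lines) and KDM6A (triangles, control lines only), in percent, for the 9 genes. H3K4me2 lies above 50% at 7 genes in every line, and the KDM6A triangles pass 50% in both lines at Cbx8. Shares for Cbx2 and Pcgf1 are over both gene ends; over the low-coordinate end of Cbx2 alone KDM6A covers 54.0% in 159-1 and 52.7% in 1014.

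Promoter sequences are shown for the 5 genes with the most KDM6A at a listed start, since this is where the factor and H3K4me2 met. Each is the 250 bases before the start, read 5′ to 3′ on the gene's strand from RefSeq (GRCm38.p6, which is mm10). Capitals mark CACGTG, an E-box that MYC and related factors bind, and GGGCGG or its reverse complement CCGCCC, the GC box of the SP1 family. Where GC boxes overlap, their capitals run together. The regions are chr11:119040914-119041163 (minus strand) for Cbx8, chr15:79834334-79834583 (minus) for Cbx6, chr2:18676768-18677017 (plus) for Bmi1, chr11:97699649-97699898 (minus) for Pcgf2 and chr17:34024681-34024930 (minus) for Ring1.
Cbx8: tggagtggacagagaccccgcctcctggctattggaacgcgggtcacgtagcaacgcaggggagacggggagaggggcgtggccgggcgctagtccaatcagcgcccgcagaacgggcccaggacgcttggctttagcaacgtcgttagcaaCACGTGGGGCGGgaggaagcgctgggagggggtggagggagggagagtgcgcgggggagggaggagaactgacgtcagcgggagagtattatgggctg
Cbx6: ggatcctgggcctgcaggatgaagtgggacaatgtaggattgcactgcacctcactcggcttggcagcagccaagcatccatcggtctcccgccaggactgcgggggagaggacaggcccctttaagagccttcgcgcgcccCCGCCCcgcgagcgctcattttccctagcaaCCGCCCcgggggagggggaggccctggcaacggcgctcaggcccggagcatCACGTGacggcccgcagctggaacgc
Bmi1: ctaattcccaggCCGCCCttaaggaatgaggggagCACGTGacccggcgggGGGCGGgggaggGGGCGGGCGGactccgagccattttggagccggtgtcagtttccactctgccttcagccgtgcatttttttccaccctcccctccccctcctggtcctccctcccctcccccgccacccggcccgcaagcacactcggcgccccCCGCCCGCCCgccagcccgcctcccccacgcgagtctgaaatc
Pcgf2: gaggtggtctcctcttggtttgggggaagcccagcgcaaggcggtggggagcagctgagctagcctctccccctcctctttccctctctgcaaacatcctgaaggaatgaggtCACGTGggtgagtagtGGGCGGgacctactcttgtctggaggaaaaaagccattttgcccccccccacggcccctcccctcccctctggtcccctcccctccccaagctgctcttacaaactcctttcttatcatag
Ring1: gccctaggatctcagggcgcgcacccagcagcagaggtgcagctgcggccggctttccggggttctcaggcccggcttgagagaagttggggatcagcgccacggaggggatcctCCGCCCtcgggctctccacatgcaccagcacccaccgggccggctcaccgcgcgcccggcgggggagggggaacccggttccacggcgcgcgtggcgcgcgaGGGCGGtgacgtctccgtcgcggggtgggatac

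H3K4me2 peaks covered all 250 of these bases in all 4 lines at each of the 7 genes with a table entry. KDM6A covered all 250 in both control lines at Cbx8, Bmi1 and Ring1. At Pcgf2 it covered 250 bases in 1014 and 0 in 159-1, and at Cbx6 it covered 250 in 159-1 and 128 in 1014. Full cover by KDM6A was therefore shared by the control lines at 3 of the 5 promoters printed.

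The CACGTG hexamer, which reads the same on both strands, was found in the 300-base entries (250 bases before and 50 after the start) of Cbx6, Cbx8, Bmi1 and Pcgf2, 4 of 7, and in 6.63% of 21263 protein-coding entries. At Cbx8 it directly abuts a GC box, as the run of capitals shows. GGGCGG on either strand was found in all 7 entries and in 42.6% of the 21263, with 6 matches at Bmi1. CpG dinucleotides numbered 37 at Ring1, 33 at Cbx7, 31 at Cbx6, 30 at Rnf2, 24 at Cbx8, 23 at Bmi1 and 10 at Pcgf2, with a median of 13 over the entries. Pcgf2, the lowest in CpG, and Cbx7 have a listed start inside the annotated gene span. A match is a description of letters, and binding to it was not measured.

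Between the groups, 1 of the 9 genes was called for more H3K4me1 in the mutant lines and 1 for less. A gene was called where the 2 groups stood at least 2 kb apart, measured between their nearest lines. By the same rule 5.3% of all genes had more H3K4me1 in the mutant lines and 7.45% had less. For H3K4me2, 1 of 9 was called for more and 0 for less, against 1.36% and 6.37% of all genes. For H3K27me3, 0 of 9 were called in each direction, against 0.425% for more and 6.43% for less. The gene with more H3K4me1 and more H3K4me2 was Pcgf1 in both cases, and the gene with less H3K4me1 was Cbx2. In the start region, where 1 kb was asked for, Cbx2 was again called for less H3K4me1 (1 of 9, against 1.54% of all genes). No other gene was called there, with 7.05% of all genes called for more H3K4me1, 1.66% and 1.03% for more and less H3K4me2, and 0.352% and 3.98% for more and less H3K27me3.

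Groups that did not overlap, by any amount, were found for H3K4me1 at 3 genes with more (Bmi1, Pcgf1, Ring1; 25.1% of all genes) and 2 with less (Cbx2, Cbx6; 14.7%). For H3K4me2 they were found at 1 with more (Pcgf1; 13.9%) and 1 with less (Pcgf2; 25.4%), and for H3K27me3 at 1 with more (Cbx7; 2.13%) and 1 with less (Pcgf1; 12.2%). Without 236L, and again at 2 kb, Pcgf2 and Pcgf1 were called for more H3K4me1 (10.1% of all genes) and Cbx2 for less (12.6%). Pcgf1 was then called for more H3K4me2 (2.66%), Cbx2 and Pcgf2 for less (9.65%), Cbx7 for more H3K27me3 (2.12%) and no gene for less (6.99%). A count of 1 among 9 genes cannot be set apart from most of these backgrounds. The calls of Pcgf1 and Cbx2 also stood without 236L. Leaving out a line can only keep or widen the gap, so this was fixed by the rule and is no check on 236L. An exact two-sided permutation test of 2 lines against 2 cannot give a p below 0.333, so no p is given for single genes.

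**Figure D2:**
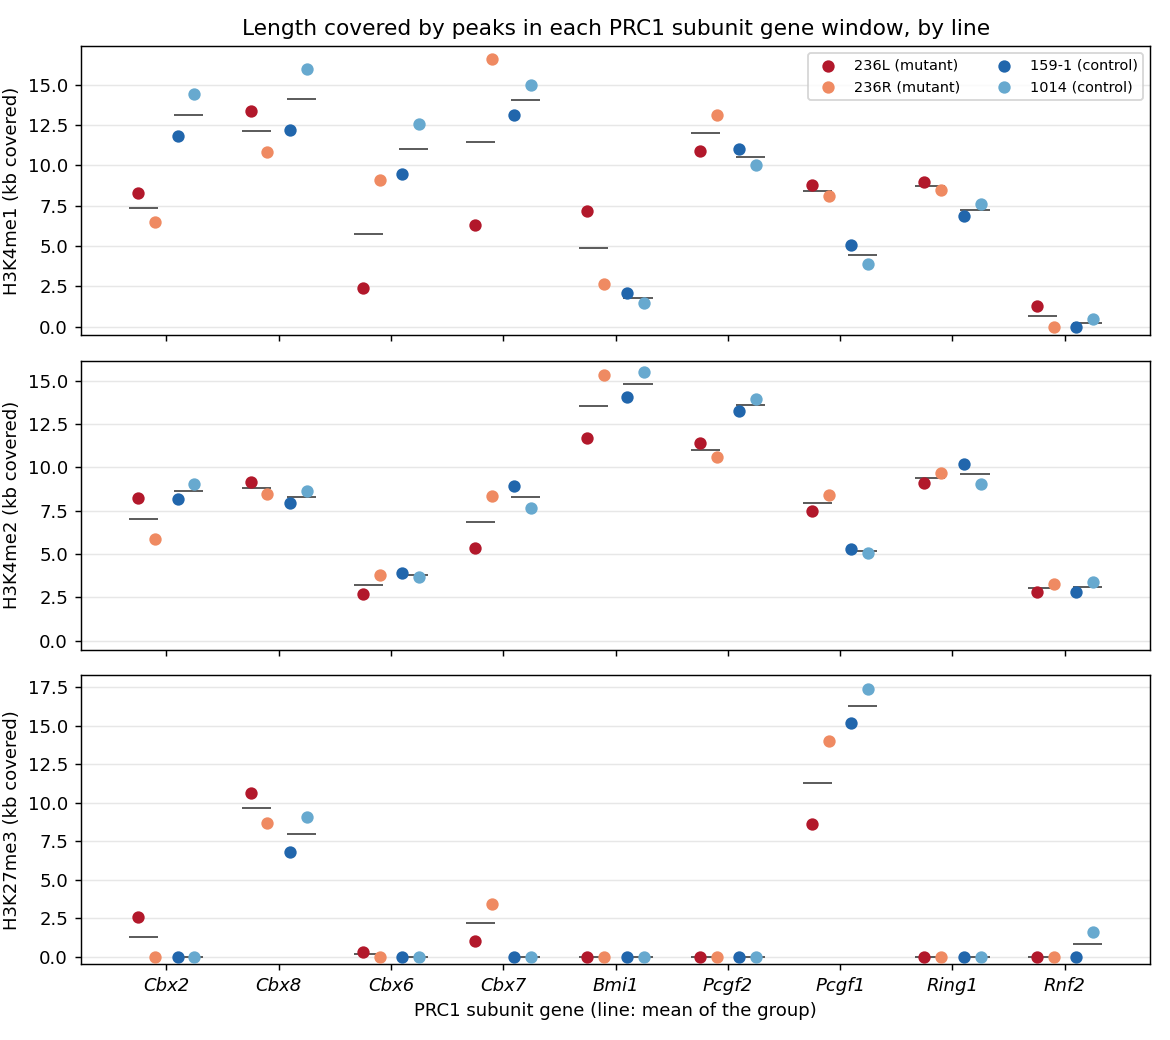
Length covered by peaks in each gene window (kb) for H3K4me1, H3K4me2 and H3K27me3; each point is a line, and short bars are group means. The mutant lines lie apart from the control lines by more than 2 kb at Cbx2 (H3K4me1, lower) and Pcgf1 (H3K4me1 and H3K4me2, higher).

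Cbx2 (gene ID 12416, chr11:119023019-119031275) encodes a chromodomain protein that compacts chromatin. H3K4me1 covered 8.29 kb of its window in 236L and 6.47 kb in 236R, against 11.8 kb in 159-1 and 14.4 kb in 1014. The groups did not overlap, and the mutant mean of 7.38 ± 1.29 kb lay 5.74 kb below the control mean of 13.1 ± 1.87 kb (SD, n = 2 each). The gap between the nearest lines was 3.51 kb. Leaving out a line can only keep or widen that gap, so a call made with 4 lines cannot be lost that way. The call was not made with only the stronger peaks, nor within the gene body alone. In the body H3K4me1 was 1.57 and 4.20 kb in 236L and 236R, against 5.82 and 6.62 kb in 159-1 and 1014.

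The longest stretch of H3K4me1 listed in the control lines alone lay at the end of Cbx2 that faces Cbx8. Within 2.5 kb of that end, the high-coordinate one, it covered 0 kb in 236L and 0.736 kb in 236R, against 3.88 kb in 159-1 and all 5 kb in 1014. At the low-coordinate end the lines overlapped, with 3.23 and 2.31 kb in 236L and 236R, against 2.79 and 2.18 kb in 159-1 and 1014. Bases marked in 159-1 and 1014 but not in 236L or 236R summed to 5.15 kb in the window, and the longest stretch of them, 3.14 kb, ran from 6.49 to 9.64 kb along the chromosome from the low-coordinate end, across the gene's other end. The flank beyond the low-coordinate end was also lower in the mutant lines, with 1.67 and 0.741 kb in 236L and 236R, against 3.07 and 2.83 kb in 159-1 and 1014. Of the difference in means of −5.74 kb, −3.34 kb was in the body, −1.75 kb in that flank and −0.65 kb in the flank toward Cbx8, where the lines overlapped. KDM6A was absent from the high-coordinate end in both control lines and covered 2.70 kb in 159-1 and 2.63 kb in 1014 at the low-coordinate end. Within these 5 kb regions, the end at which H3K4me1 stood apart carried no KDM6A peak, and at the end with KDM6A the groups overlapped.

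H3K4me2 at Cbx2 overlapped between groups, at 8.21 and 5.86 kb in 236L and 236R, against 8.16 and 9.06 kb in 159-1 and 1014. At the low-coordinate end it was 3.68 and 3.26 kb in 236L and 236R, against 3.51 and 3.83 kb in 159-1 and 1014. H3K27me3 was listed in 236L alone, at 2.60 kb, of which 2.32 kb lay beyond the high-coordinate end toward Cbx8, and was at 0 in 236R, 159-1 and 1014.

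Cbx8 (gene ID 30951, chr11:119036303-119040913, minus strand) encodes a canonical PRC1 reader of H3K27me3. Its body lies 5.03 kb from that of Cbx2, and the 2 windows share 15.0 kb, so their values are not independent. H3K4me1 covered 13.4 and 10.8 kb in 236L and 236R, against 12.2 and 16.0 kb in 159-1 and 1014, and H3K4me2 covered 9.15 and 8.49 kb in 236L and 236R, against 7.94 and 8.64 kb in 159-1 and 1014. Groups overlapped for both marks. The flank toward Cbx2 held less H3K4me1 in the mutant lines, 2.20 and 1.84 kb in 236L and 236R, against 5.18 and 8.26 kb in 159-1 and 1014, and includes the stretch described at Cbx2.

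H3K27me3 sat beside the Cbx8 start in every line, with 10.6 kb in 236L and 8.67 kb in 236R, against 6.81 kb in 159-1 and 9.06 kb in 1014. The 4 lines overlapped although the whole 236L list covered only 13.8 Mb and that of 1014 covered 110.3 Mb. Bases marked in all 4 lines summed to 6.20 kb, and their longest stretch ran from 5.33 kb upstream of the start to the edge of the window at 10 kb. With only the stronger peaks the mutant-minus-control difference in H3K27me3 was −4.53 kb, against 1.71 kb with all peaks, so its direction rests on the weaker peaks. Cbx8 was the 1 gene of 9 with any H3K27me3 in the start region in all 4 lines, against 4.95% of all genes. It covered 22.4% and 23.4% of that region in 236L and 236R, against 17.8% and 31.2% in 159-1 and 1014.

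**Figure D3:**
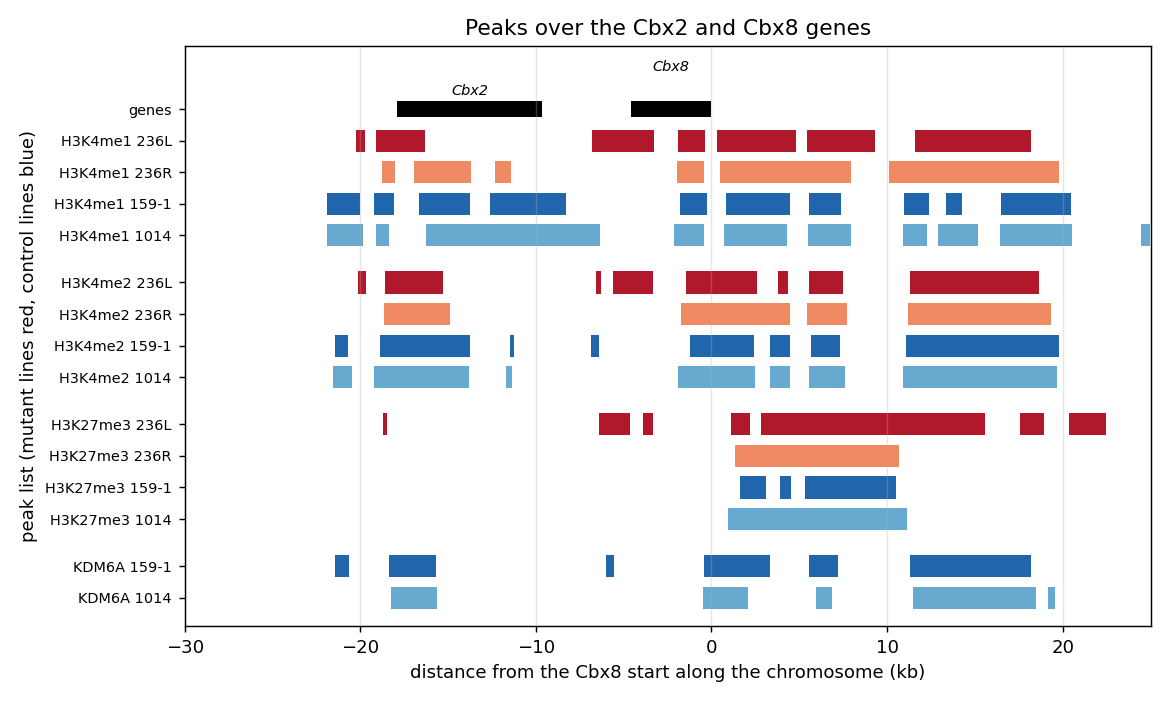
Peaks over Cbx2 and Cbx8 in each list, by distance from the Cbx8 start along the chromosome (kb), mutant lines in red above control lines in blue. H3K4me1 over the Cbx2 end that faces Cbx8 is listed in 159-1 and 1014 and not in 236L or 236R between −11.4 and −8.26 kb, and H3K27me3 lies right of the Cbx8 start in all 4 lines.

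Cbx6 (gene ID 494448, chr15:79823898-79834333, minus strand; the Npcd gene overlaps it) and Cbx7 (gene ID 52609, chr15:79915804-79971143, minus strand), genes of further chromodomain proteins, stand 81.5 kb apart. CBX7 is the main canonical reader in mouse embryonic stem cells. At Cbx6 H3K4me1 covered 2.42 kb in 236L and 9.12 kb in 236R, against 9.44 kb in 159-1 and 12.6 kb in 1014. The groups did not overlap, yet 236R lay only 0.32 kb under 159-1 and the gene was not called. With only the stronger peaks the difference in means was 0.347 kb, against −5.25 kb with all peaks. On the side of the window beyond the 3′ end of Cbx6, H3K4me1 was 0 in 236L and 236R, against 3.67 kb in 159-1 and 4.48 kb in 1014. H3K4me2 at Cbx6 overlapped between groups, at 2.68 and 3.79 kb in 236L and 236R, against 3.90 and 3.68 kb in 159-1 and 1014, and H3K27me3 was 0.309 kb in 236L and 0 in the other 3 lines.

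At Cbx7 H3K4me1 covered 6.29 and 16.6 kb in 236L and 236R, against 13.1 and 15.0 kb in 159-1 and 1014, and H3K4me2 was 5.35 and 8.34 kb in 236L and 236R, against 8.90 and 7.68 kb in 159-1 and 1014. Both overlapped between groups, and 236L was lowest for each. H3K27me3 was found inside the Cbx7 body in the mutant lines alone, 0.984 kb in 236L and 3.41 kb in 236R, and 0 in both control lines. That gap is under 2 kb and rests on 236L for its size: without 236L the gene was called for more H3K27me3, as 2.12% of all genes then were. The 2 mutant lines shared only 0.71 kb of this H3K27me3. With only the stronger peaks the difference in means was 0 kb, against 2.20 kb with all peaks, so it rests on the weaker peaks.

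Bmi1 (gene ID 12151, chr2:18677018-18686629, plus strand) had the densest H3K4me2 and KDM6A of the 9 genes per window length. H3K4me2 covered 11.7 and 15.3 kb in 236L and 236R, against 14.1 and 15.5 kb in 159-1 and 1014, and overlapped between groups. KDM6A covered 6.58 kb in 159-1 and 5.87 kb in 1014, and every base of it lay under H3K4me2 of the same line by the labels. H3K4me1 was short, at 7.17 and 2.63 kb in 236L and 236R, against 2.11 and 1.48 kb in 159-1 and 1014. Mutant lines were above control lines by 0.519 kb, under the 2 kb needed, and 236L was the high one. H3K27me3 was 0 in all 4 lines, as at Pcgf2 and Ring1 (3 of 9, against 56% of all genes). The window also holds Commd3, Gm46725 and the start of Spag6.

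Pcgf2 (gene ID 22658, chr11:97688821-97702434, minus strand) encodes a close relative of BMI1. H3K4me2 covered 11.4 and 10.6 kb in 236L and 236R, against 13.2 and 13.9 kb in 159-1 and 1014. The groups did not overlap and differed by 1.84 kb at the nearest lines, short of a call at 2 kb; without 236L the gene was called for less H3K4me2, as 9.65% of all genes then were. Most of the difference lay in the body, with 5.51 and 4.91 kb in 236L and 236R, against 6.43 and 7.79 kb in 159-1 and 1014. The flank beyond the 3′ end was lower too, with 3.13 and 3.15 kb in 236L and 236R, against 4.27 and 3.39 kb in 159-1 and 1014. At the start region H3K4me2 covered 91.7% and 92.5% in 236L and 236R, against 91.9% and 100% in 159-1 and 1014. H3K4me1 overlapped between groups, at 10.9 and 13.2 kb in 236L and 236R, against 11.0 and 10.0 kb in 159-1 and 1014. The window also holds Cisd3 and parts of Mllt6 and Psmb3.

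Pcgf1 (gene ID 69837, chr6:83077552-83080855) was the gene with more of both H3K4 marks in the mutant lines. H3K4me1 covered 8.77 kb in 236L and 8.11 kb in 236R, against 5.06 kb in 159-1 and 3.89 kb in 1014. H3K4me2 covered 7.48 kb in 236L and 8.39 kb in 236R, against 5.29 kb in 159-1 and 5.06 kb in 1014. The groups stood apart for both marks, by 3.05 kb for H3K4me1 and 2.19 kb for H3K4me2. Means were 8.44 ± 0.471 kb in the mutant lines and 4.47 ± 0.827 kb in the control lines for H3K4me1, and 7.93 ± 0.643 kb in the mutant lines and 5.18 ± 0.164 kb in the control lines for H3K4me2 (SD, n = 2 each). Both calls held with only the stronger peaks. By the rule used, neither could be lost by leaving out 1 line. Neither was made within the gene body alone or in the start region.

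The extra H3K4me2 lay at the neighbouring homeobox genes, not at Pcgf1 itself. Around the ends of Pcgf1 it covered 2.45 and 2.91 kb in 236L and 236R, against 2.76 and 2.49 kb in 159-1 and 1014, and in its body 2.33 and 2.39 kb in 236L and 236R, against 2.23 and 2.24 kb in 159-1 and 1014. These values overlapped at the ends, and the group means differed by 0.128 kb in the body. Over Lbx2, a homeobox transcription factor gene 5.51 kb away (chr6:83086365-83088243, taken with 1 kb on each side), H3K4me2 covered 2.10 and 2.31 kb in 236L and 236R, against 0.46 and 0.731 kb in 159-1 and 1014. Over Tlx2, a homeobox gene 7.33 kb away on the other side (chr6:83068325-83070225, with the same 1 kb), it covered 2.72 and 2.86 kb in 236L and 236R, against 2.08 and 1.84 kb in 159-1 and 1014. Mutant lines were above control lines at both genes, and the gap was wider at Lbx2. The window of Pcgf1 reaches into both neighbours.

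H3K4me1 was higher in the mutant lines at Pcgf1 itself as well. Its body held 2.19 and 1.93 kb in 236L and 236R, against 1.10 and 1.18 kb in 159-1 and 1014, and its start region 2.89 and 2.15 kb in 236L and 236R, against 1.26 and 1.18 kb in 159-1 and 1014. Neither place had overlap between groups, though the gap of 0.889 kb in the start region was under the 1 kb needed there. Over Lbx2 H3K4me1 covered 2.31 and 2.51 kb in 236L and 236R, against 1.76 and 0 kb in 159-1 and 1014, and over Tlx2 2.78 and 2.77 kb in 236L and 236R, against 2.03 and 2.52 kb in 159-1 and 1014. The mutant lines were thus higher for H3K4me1 at the gene and at both neighbours.

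H3K27me3 at Pcgf1 was 8.61 kb in 236L and 14 kb in 236R, against 15.2 kb in 159-1 and 17.4 kb in 1014. It was the broadest of the 9 genes in 236R, 159-1 and 1014, while in 236L Cbx8 had more, at 10.6 kb. Mutant lines were lower without overlap, but by 1.21 kb at the nearest lines, so no call was made. The whole lists of 236L and 236R were also shorter than those of the control lines. Without 236R or without 159-1 the gene was called for less, as 10.1% and 16.9% of all genes then were, and also with only the stronger peaks, where the difference in means was −12.4 kb, against −5.00 kb with all peaks. The same neighbours carried part of it. Lbx2 had 1.82 kb in 236L and 3.88 kb, its full length with flanks, in 236R, 159-1 and 1014, and Tlx2 had 3.69 kb in 236L and its full 3.90 kb in the other 3 lines. The Pcgf1 body held 0 kb in 236L and 0.355 kb in 236R, against 0 kb in 159-1 and 0.159 kb in 1014.

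**Figure D4:**
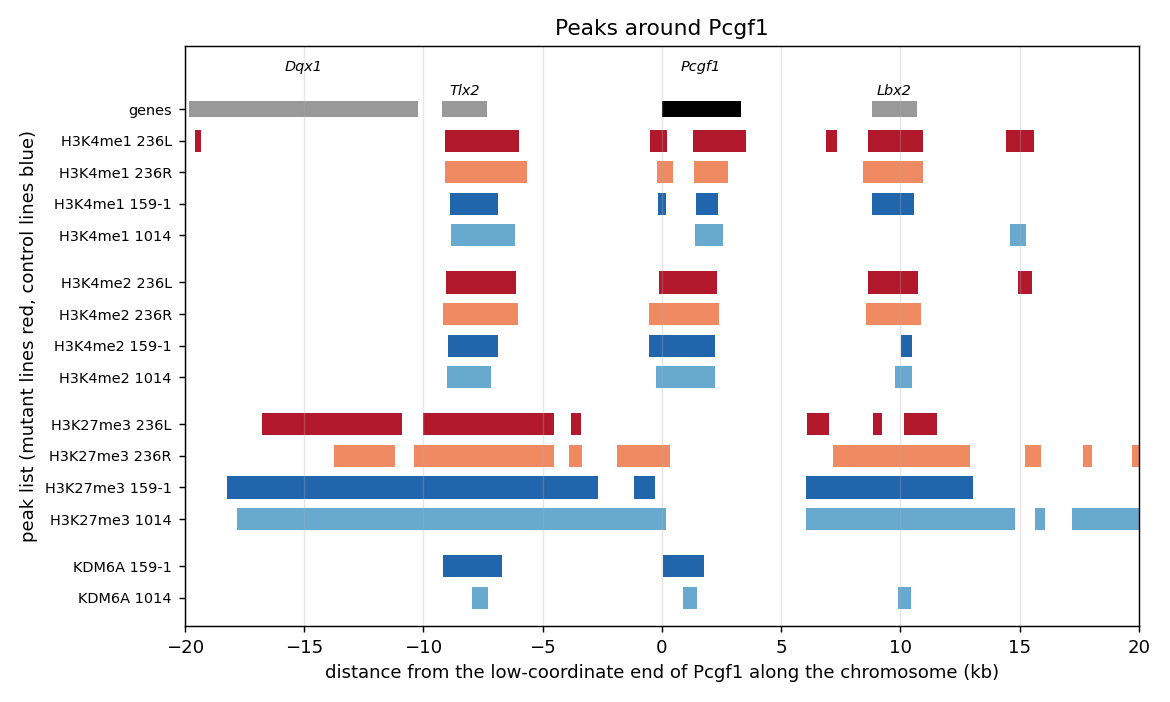
Peaks around Pcgf1 in each list, by distance from the low-coordinate end of the gene along the chromosome (kb), mutant lines in red above control lines in blue. H3K4me2 over Lbx2 is 2.10 and 2.31 kb in 236L and 236R, against 0.46 and 0.731 kb in 159-1 and 1014, while H3K27me3 flanks Pcgf1 on both sides and covers at most 0.355 kb of its body.

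Ring1 (gene ID 19763, chr17:34020792-34024680, minus strand) and Rnf2 (gene ID 19821, chr1:151469398-151500991, minus strand), the genes of the alternative catalytic subunits, were not called for any mark. At Ring1 H3K4me2 covered 9.07 and 9.70 kb in 236L and 236R, against 10.2 and 9.06 kb in 159-1 and 1014. H3K4me1 covered 8.95 and 8.47 kb in 236L and 236R, against 6.85 and 7.58 kb in 159-1 and 1014. The H3K4me2 values overlapped, and the H3K4me1 of the mutant lines was higher by 0.891 kb at the nearest lines. Most of the H3K4me2 lay upstream of the start, 7.65 and 8.73 kb in 236L and 236R, against 8.85 and 8.05 kb in 159-1 and 1014, on the side that holds H2-Ke6, Slc39a7 and Rxrb; in the downstream flank all 3 histone marks were 0 in every line.

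Rnf2 had the lowest share of its window under H3K4me1, H3K4me2 and KDM6A of the 9, and its window holds no other protein-coding gene. H3K4me2 formed a single peak at the start, of 2.80 and 3.30 kb in 236L and 236R, against 2.82 and 3.41 kb in 159-1 and 1014. H3K4me1 was 1.31 kb in 236L and 0 in 236R, against 0 in 159-1 and 0.495 kb in 1014, and H3K27me3 was 1.58 kb in 1014 and 0 in the other 3 lines. Bases under H3K4me2 in all 4 lines summed to 2.73 kb, in 1 stretch, so the H3K4me2 peak was in the same place in every line. KDM6A covered 1.19 kb in 159-1 and 1.20 kb in 1014, all within that line's H3K4me2 peak.

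KDM6A over the 9 windows lay mostly on H3K4me2. Summed over the genes, 89.5% of KDM6A bases in 159-1 and 94.9% in 1014 were also under H3K4me2 of the same line, against 75.8% in 159-1 and 82.5% in 1014 over the whole lists. With the H3K4me2 lists of the control lines exchanged, the sums were 89.2% in 159-1 and 94.5% in 1014. Per gene the share ran from 70.0% to 100% in 159-1 and from 40.8% to 100% in 1014, and Cbx7 was lowest in both. Conversely, KDM6A took 21.9% to 71.6% of the H3K4me2 bases in 159-1 and 12.3% to 48.2% in 1014, so it was the narrower signal at each gene.

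H3K4me2 and H3K27me3 peaks shared bases in the windows of Cbx8 and Pcgf1 in every line. At Cbx8 the shared length was 5.30 and 5.42 kb in 236L and 236R, against 3.03 and 4.70 kb in 159-1 and 1014. In the Pcgf1 window it was 3.93 and 6.35 kb in 236L and 236R, against 2.78 and 2.98 kb in 159-1 and 1014. Most of this length lay in the peaks at the neighbours Tlx2 and Lbx2, not at Pcgf1 itself. The Pcgf1 body held at most 0.355 kb of H3K27me3, and in 236L none lay within 2.5 kb of either end. Both mutant lines were above both control lines in these 2 windows, as at 3.16% of all genes. Between the nearest lines the gap was 0.602 kb for Cbx8 and 0.953 kb for Pcgf1. The shared lengths were not recomputed with the H3K4me2 lists of the control lines exchanged. At least 1 kb in all 4 lines was found at these 2 of 9 genes, against 2.09% of all genes, and at 0 of 9 with only the stronger peaks. Cbx2 had 1.80 kb in 236L and 0 in the other 3 lines, and the remaining 6 genes had 0 in every line.

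Ranked by the share of the window covered, averaged over lines, H3K4me1 was densest at Cbx8 (53.2%), then Cbx2 (36.3%), Pcgf2 (33.5%), Ring1 (33.3%), Pcgf1 (27.7%), Cbx6 (27.6%), Cbx7 (16.9%), Bmi1 (11.3%) and Rnf2 (0.873%). Neighbours in this order overlapped in their ranges over lines, except that Rnf2, at 0% to 2.53%, lay under Bmi1, at 5.01% to 24.2%. For H3K4me2 the order was Bmi1 (47.8%), Ring1 (39.8%), Pcgf2 (36.5%), Cbx8 (34.8%), Pcgf1 (28.1%), Cbx2 (27.7%), Cbx6 (11.5%), Cbx7 (10.0%) and Rnf2 (5.97%). The step from Cbx2, at 20.7% or more, to Cbx6, at 12.8% or less, and the step from Cbx7 to Rnf2 had no overlap, and the other neighbours overlapped. For H3K27me3, Pcgf1 (59.2%) and Cbx8 (35.7%), whose ranges overlapped each other, stood above Cbx2 (2.30%), Cbx7 (1.46%), Rnf2 (0.765%) and Cbx6 (0.254%). Bmi1, which led for H3K4me2, was next to last for H3K4me1.

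KDM6A per window length was densest at Bmi1 (21.0%), Ring1 (19.7%) and Cbx8 (18.9%), then Cbx2 (14.5%), Pcgf1 (12.8%), Pcgf2 (12.1%), Cbx6 (5.81%), Cbx7 (3.39%) and Rnf2 (2.32%), as means of the control lines. The last 3 genes lay under the other 6 in each control line. In the median gene of the 9, H3K4me1 covered 29.3% and 30.0% of the window in 236L and 236R, against 28.7% and 29.9% in 159-1 and 1014, while over all genes the medians were 6.58% and 4.85% in 236L and 236R, against 3.77% and 4.11% in 159-1 and 1014. H3K4me2 covered 32.1% and 31.5% in 236L and 236R, against 28.9% and 32.1% in 159-1 and 1014, beside medians over all genes of 6.08% to 6.67%. Rnf2 lay under these medians for H3K4me1 in every line and for H3K4me2 in 236L (5.42%), 159-1 (5.47%) and 1014 (6.60%). The median mutant-minus-control difference over them was 0.406 kb for H3K4me1 (0.203 kb over all genes), −0.56 kb for H3K4me2 (0 kb over all genes) and 0 kb for H3K27me3 (also 0 kb over all genes).

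**Figure D5:**
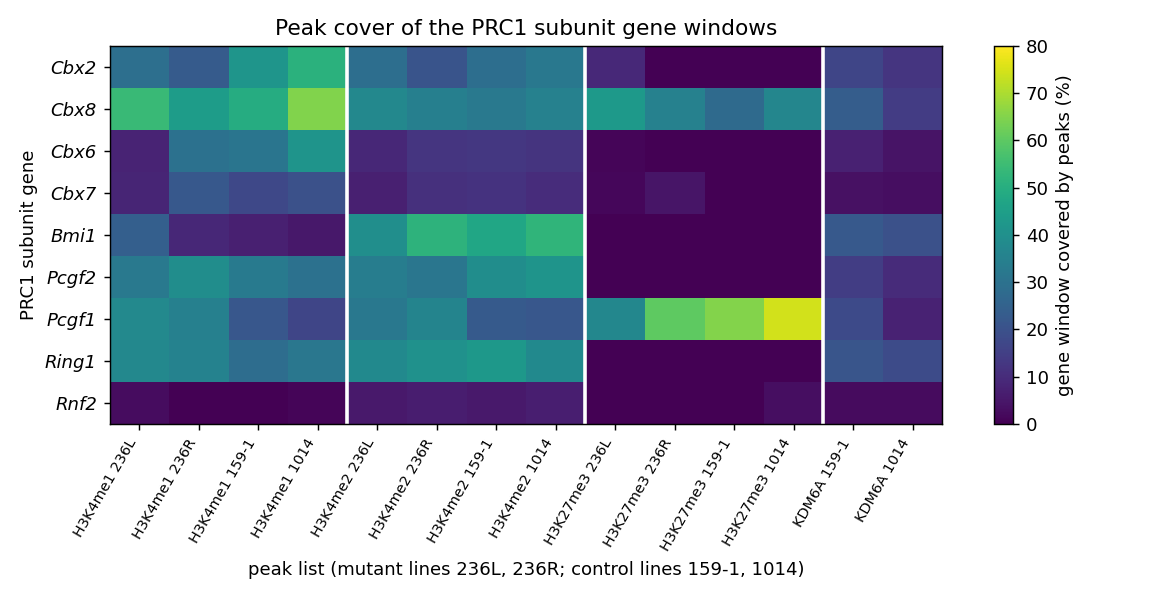
Share of each gene window covered by peaks (%, colour) in the 14 lists, with mutant lines left of control lines within each mark. H3K27me3 is dense only at Pcgf1 and Cbx8, and H3K4me2 is densest at Bmi1. Rnf2 has the lowest window shares of H3K4me1, H3K4me2 and KDM6A, with its H3K4me2 in a single peak at the start.

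Of 18 other PRC1 genes, 1 was called for more H3K4me1 in the mutant lines and 3 for less, 0 for more H3K4me2 and 4 for less, and 0 for H3K27me3 in each direction. Over all genes the shares were 5.3% for more and 7.45% for less H3K4me1, 1.36% for more and 6.37% for less H3K4me2, and 0.425% for more and 6.43% for less H3K27me3. The same shares apply to the shorter lists that follow. Phc2, a polyhomeotic scaffold gene of canonical PRC1, had the widest gap, with H3K4me1 of 18.2 and 31.0 kb in 236L and 236R, against 58.2 and 60.8 kb in 159-1 and 1014, and H3K4me2 of 15.0 and 18.8 kb in 236L and 236R, against 30.2 and 28.4 kb in 159-1 and 1014. Usp7, a deubiquitinase bound by variant PRC1, had 11.9 and 10.4 kb of H3K4me1 in 236L and 236R, against 23.8 and 29.4 kb in 159-1 and 1014. Its H3K4me2 was 6.45 and 4.14 kb in 236L and 236R, against 11.8 and 13.4 kb in 159-1 and 1014. Both genes were lower for both marks in the mutant lines. Fbrs, of a PCGF3 and PCGF5 complex, was the gene with more H3K4me1, at 9.54 and 6.11 kb in 236L and 236R, against 3.27 and 2.66 kb in 159-1 and 1014.

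Of 11 genes of PRC2, which places H3K27me3, 1 was called for less H3K4me1 and 1 for less H3K4me2, with 0 called for more of either or for H3K27me3. Ezh1, a catalytic subunit gene, had 4.24 and 7.32 kb of H3K4me1 in 236L and 236R, against 10.8 and 10.3 kb in 159-1 and 1014. Jarid2, a cofactor gene, had 8.68 and 17.7 kb of H3K4me2 in 236L and 236R, against 22.6 and 22.0 kb in 159-1 and 1014. Of 6 genes for the removal of ubiquitin from H2A, 1 was called for less H3K4me1, 2 for less H3K4me2, and 0 otherwise. Asxl1, a partner of BAP1, had 11.8 and 11.3 kb of H3K4me1 in 236L and 236R, against 15.6 and 15.7 kb in 159-1 and 1014, and 6.91 and 4.43 kb of H3K4me2 in 236L and 236R, against 10.3 and 10.8 kb in 159-1 and 1014. Asxl3, its relative, had 1.94 and 4.33 kb of H3K4me2 in 236L and 236R, against 7.62 and 9.88 kb in 159-1 and 1014. The median mutant-minus-control difference in H3K4me2 was −0.88 kb over the 18 other PRC1 genes, 0.001 kb over the PRC2 genes and −1.27 kb over the 6 genes for removal of ubiquitin, beside 0 kb over all genes.

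The autosomal gene outside these windows with the most similar cover over the 14 lists, by the mean absolute difference in kb per list, was Ten1 for Cbx2 (0.667 kb), Nxph4 for Cbx8 (1.76 kb) and Pipox for Cbx6 (0.526 kb). It was H3c2 for Bmi1 (0.808 kb), Med25 for Pcgf2 (0.567 kb), Flnc for Pcgf1 (1.50 kb), Kif23 for Ring1 (0.435 kb) and Stradb for Rnf2 (0.149 kb). The median gene differed by 1.96 kb from Rnf2 and by 7.26 kb from Cbx8, the least and the most of the 9.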

How the data were processed

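ChIP-seq peak lists of 14 libraries were used; the 10 input libraries have no list here. The submitters' processing notes name Bowtie2 2.4.2, MACS3 3.0.0a7 and mm10, with no further settings, and the authors made 1 list per library without pooling. The authors deposited a position, a score, a fold (ratio) over background and −log10 p and q values for each peak. The score and the fold were not used, and the −log10 q served to filter and rank peaks within a list. The −log10 p served only to order peaks where lists were cut to equal covered length. Depth is unknown, so a shorter list may come from a shallower library. The 337 peaks on contigs were left out, overlapping peaks of a list were joined, and covered length was taken over windows of 21887 protein-coding genes (RefSeq GRCm38.p6; that gene table has no strand). Of the 9 genes 7 have a RefSeq promoter entry, which gave strand and start; Cbx2 and Pcgf1 have none, and both gene ends were used. A call needs a separation of 2 kb in the window or 1 kb in the start region.

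The 9 members and all gene lists were chosen with earlier results of these data known. All 9 are named; of the other lists, up to 2 called genes per mark and direction with the largest separation, and per member the nearest gene by cover. Some genes that this rule or these lists hold are not reported here. Promoters were printed for called genes if listed, else for the 5 with most KDM6A at the start. Scripts (Python 3.11.15, numpy 2.4.6, pandas 2.3.3, matplotlib 3.10.9) were tested on simulated data. Alternatives changed the separation, the window, the peak threshold, the list length and the lines used.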

Additional observations from a re-analysis of the deposited data

How the results depend on the processing

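No count reversed. At a separation of 5 kb no gene was called for more or less H3K4me1 or for more H3K4me2 (0 each). At any amount H3K4me1 gave 3 more and 2 less, H3K4me2 1 less, and H3K27me3 1 more and 1 less; at 1 kb H3K4me2 and H3K27me3 each gave 1 less. With 50 kb on each side H3K4me1 gave 2 more and 2 less, H3K4me2 2 less and H3K27me3 1 less. The 2 less were Cbx2 and Cbx8 for both H3K4 marks, and as their windows overlap they are not independent. The gene body alone gave 0 more and 0 less for H3K4me1 and 0 more for H3K4me2, and the start region gave 0 more for both. Peaks with a −log10 q of at least 3 gave 0 less for H3K4me1, 1 less for H3K27me3 (Pcgf1), 0 genes with KDM6A over 50% of the start and 0 genes with H3K4me2 and H3K27me3 on the same bases; any overlap of KDM6A with the start gave 9 genes. Equal covered length changed no count. No share over all genes was taken at separations of 1 or 5 kb in the window, or with 50 kb on each side. Nor was one taken for the gene body alone, the stronger peaks or equal covered length. The counts at these settings therefore have no background beside them. Leaving out 1 line can only add calls. It gave 1 to 2 more and 1 to 3 less for H3K4me1, against 7.86% to 29.7% and 8.72% to 15.2% of all genes. For H3K4me2 it gave 1 to 1 more and 0 to 2 less, against 2.09% to 10.3% and 9.18% to 11.5%. For H3K27me3 it gave 0 to 1 in each direction, against 0.471% to 4.02% for more and 6.99% to 16.9% for less. For KDM6A it gave 1 to 1, with no share taken over all genes. Of 108 mutant-minus-control differences per mark under alternatives, 20 moved by more than the spread between lines for H3K4me1, 11 for H3K4me2 and 16 for H3K27me3. The 108 include settings that changed only the separation, under which a difference cannot move, so the unmoved ones are not a measure of robustness. Of called values 0 reversed. Among those not called, H3K4me1 at Cbx6 and Cbx7 and H3K27me3 at Cbx8 changed sign with the stronger peaks. The H3K27me3 difference at Cbx2, Cbx6, Cbx7 and Rnf2 then went to 0 kb. The cause was not tested. No paired analysis was possible because the labels give the lines no shared numbers. With 2 lines a group and unknown depth, differences under the separation used are not resolved.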
